A study of Mus musculus with 20 samples.

Results

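The ribosome biogenesis factors examined here were 39 named genes whose products act in the nucleolus to make and mature ribosomal RNA and to assemble the ribosomal subunits. They were found by matching gene symbols exactly: 38 of the 39 had a row among the 37681 genes of the count tables, and Noc2l was not analysed here. All 38 were among the 15578 genes tested. A gene was kept if, in any table, 5 or more mice had a count of 5 or higher. Livers came from 10 wild-type male mice aged 12 weeks (strain label C57/BL6, C57/B6J in the protocol). The inflammatory cytokine IL-1β (20 µg/kg, intraperitoneal) was given to 5 of them, and the other 5, called untreated, had saline only. Tissue was taken 4 hours later, and RNA from each liver was sequenced on both an Illumina HiSeq and an Ion Torrent Proton. Reads of each platform were aligned with GSNAP, with STAR, and with STAR followed by Bowtie2, which gave 6 tables of counts. Values below are from the Illumina STAR table unless another is named.

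Ribosome production begins when RNA polymerase I transcribes a long precursor RNA from the ribosomal DNA repeats. Small nucleolar RNAs (snoRNAs), carried by box C/D and box H/ACA protein complexes, guide methylation and pseudouridylation of that precursor, and a large assembly called the small subunit processome cleaves and folds it. A separate set of factors builds the large subunit. The genes are expressed in every growing cell, and in liver they are best known from growth and regeneration. Many are regarded as targets of the transcription factor Myc, which with its partner Max binds the E-box CACGTG.

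Promoters are shown here because the members moved together, as described below. RefSeq sequence (GRCm38.p6) was at hand for 32 of the 38 members, and the 250 bases before the annotated start were searched. CACGTG, which reads the same on both strands, occurred in 3 of the 32 promoters (9.38%) and in 1854 of 27025 genes with a promoter entry (6.86%). Among the tested genes with an entry, the background that fits the members, the share was 9.87%, so CACGTG was no more frequent in these windows of the members. Sites outside the window were not searched, only 3 members held the motif, and binding by Myc was not tested. The BANP motif, also a palindrome, was in 0 of 32 against 121 of all genes (0.448%) and 0.884% of the tested genes. CCGGAA on either strand, the core bound by ETS factors, was looked for after the promoters had been read and is given as a description: 12 of 32 held it (37.5%), against 13.6% of all genes and 24.1% of the tested genes that had an entry. Below are the 3 members with CACGTG, then the members with the highest fold changes. Capitals mark CACGTG, and CCGGAA or its reverse complement TTCCGG, which overlap each other in Gar1. The windows are chr16:13780449-13780698 for Rrn3, chr6:125131633-125131882 for Nop2 and chr1:59684756-59685005 for Nop58, all on the plus strand, and chr11:93885767-93886016 for Utp18 and chr3:129831397-129831646 for Gar1, both on the minus strand.
Rrn3: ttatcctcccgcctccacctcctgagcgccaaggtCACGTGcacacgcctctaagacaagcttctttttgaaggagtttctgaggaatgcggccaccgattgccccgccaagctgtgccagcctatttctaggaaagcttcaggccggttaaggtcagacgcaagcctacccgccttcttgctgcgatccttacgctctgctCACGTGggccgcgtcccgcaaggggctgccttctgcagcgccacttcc
Nop2: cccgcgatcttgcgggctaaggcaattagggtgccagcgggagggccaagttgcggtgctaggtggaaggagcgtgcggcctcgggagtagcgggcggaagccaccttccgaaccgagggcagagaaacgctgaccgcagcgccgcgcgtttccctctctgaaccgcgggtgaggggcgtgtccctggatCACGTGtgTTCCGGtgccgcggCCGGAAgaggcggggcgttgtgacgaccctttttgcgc
Utp18: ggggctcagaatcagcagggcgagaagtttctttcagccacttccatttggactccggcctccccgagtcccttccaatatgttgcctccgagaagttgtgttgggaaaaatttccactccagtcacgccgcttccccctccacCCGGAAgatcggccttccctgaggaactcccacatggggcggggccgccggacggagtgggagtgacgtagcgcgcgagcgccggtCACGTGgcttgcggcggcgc
Nop58: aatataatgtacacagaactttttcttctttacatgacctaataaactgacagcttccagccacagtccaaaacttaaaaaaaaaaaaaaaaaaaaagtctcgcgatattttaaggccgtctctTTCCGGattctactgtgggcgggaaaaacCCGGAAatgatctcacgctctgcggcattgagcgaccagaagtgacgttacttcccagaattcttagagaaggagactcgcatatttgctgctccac
Gar1: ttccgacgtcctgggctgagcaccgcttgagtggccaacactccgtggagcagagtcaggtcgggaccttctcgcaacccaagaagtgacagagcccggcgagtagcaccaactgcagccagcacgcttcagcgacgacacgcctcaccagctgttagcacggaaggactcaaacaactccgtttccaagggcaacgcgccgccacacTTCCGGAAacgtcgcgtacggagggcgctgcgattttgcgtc
The members with CACGTG spanned log2 fold changes (IL-1β relative to untreated) of 0.35 for Rrn3, 0.66 for Utp18 and 1.21 for Nop2, with a median of 0.66, and the 29 without had a median of 0.87. The 12 members with CCGGAA had a median of 1.25 and ranged from 0.51 to 2.42, and those without had a median of 0.72. Among all tested genes with an entry, members included, 32.2% of those with CCGGAA and 24.8% of those without were called higher. The motif thus went with more calls among tested genes in general.

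Across the members, the direction was the same throughout. All 38 had a log2 fold change above 0, and 37 of the 38 were called higher in IL-1β mice, that is, with a Benjamini-Hochberg adjusted p below 0.05 in edgeR's quasi-likelihood test fitted to all 15578 genes. Of all genes tested, 22.7% were called higher. None of the 38 was called lower, adjusted or unadjusted (0 of 38, with 0 also by DESeq2, limma-voom and the Mann-Whitney U test), against 22.9% of all genes. The median log2 fold change of the members was 0.86, and that of all tested genes was 0. The Mann-Whitney U test called 32 higher, against 13.8% of all genes. In 32 members every IL-1β mouse lay above every untreated mouse, which held for 17.6% of all genes, and in the remaining 6 (Rrn3, Dkc1, Utp15, Nob1, Wdr12 and Npm1) the groups overlapped. With a log2 fold change above 1 also required, 15 members were called, against 8.02% of all genes. Without scaling factors between libraries the median of all genes with a mean of at least 10 reads was -0.12 on the log2 scale and that of the members was 0.73, and all 38 still lay above 0.

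Added up in each mouse, the members took 1812 to 2059 CPM (counts scaled to library size, corrected with trimmed mean of M-values factors) in the IL-1β mice and 985 to 1121 in the untreated mice. The means were 1892 ± 100.4 and 1057 ± 58.1 (SD, n = 5 each). IL-1β mouse ILB_9579 was the highest of its group for 23 of the 38 members. Among untreated mice, UNT_9580 was the lowest for 17 members and UNT_9584 for 14. On Ion Torrent with STAR, ILB_9579 was again the highest of its group, for 20 members. The order of the untreated mice differed there: UNT_9574 and UNT_9580 were each the lowest for 11 members and UNT_9584 for 10.

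**Figure D1:**
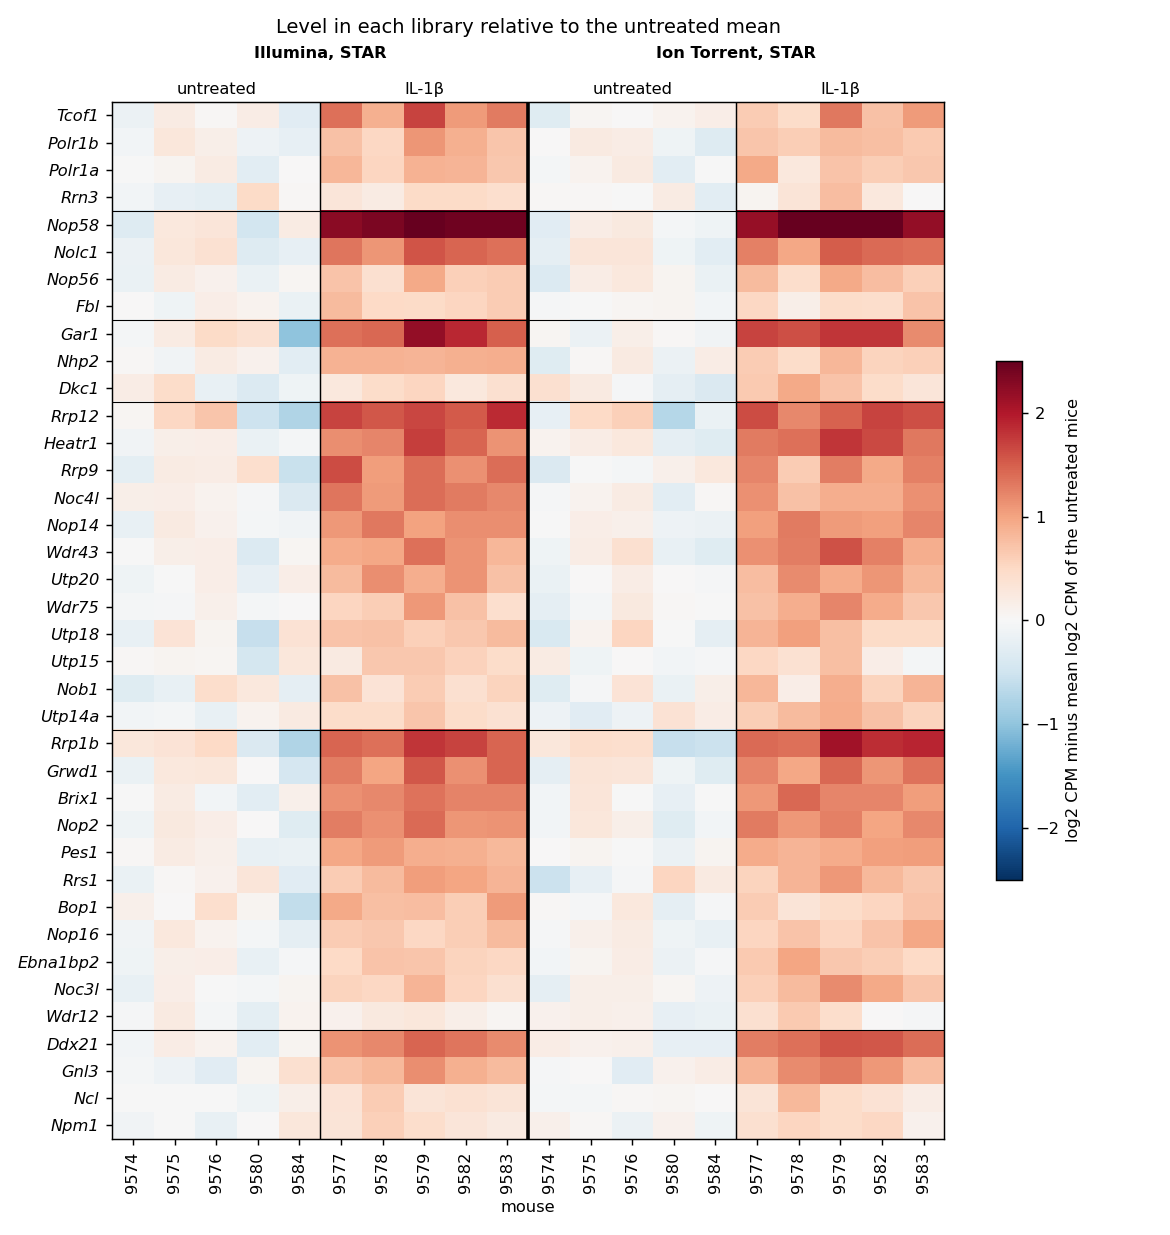
Each cell is the log2 CPM of a member in a library minus its mean in the untreated mice of the same platform, for the 10 mice on each platform (STAR alignments), with members in rows by role and a colour scale from -2.5 to 2.5 (values beyond it take the end colour). The IL-1β columns are red for nearly all members on both platforms, most deeply for Nop58. Mouse ILB_9579 is often the deepest of its group on both.

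Below, the values of single mice are given in the order ILB_9577, ILB_9578, ILB_9579, ILB_9582 and ILB_9583 for IL-1β and UNT_9574, UNT_9575, UNT_9576, UNT_9580 and UNT_9584 for untreated, as the labels name them. Gene positions are on the mm9 build of the tables (NCBIM37 annotation), and every member is annotated as protein coding.

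The members that act with RNA polymerase I were all called higher (4 of 4), with a median log2 fold change of 0.77. Tcof1 encodes treacle, a nucleolar phosphoprotein that recruits the polymerase machinery to ribosomal DNA and is mutated in Treacher Collins syndrome. It was counted at 14.5, 10.3, 18.2, 11.8 and 13.8 CPM in IL-1β mice and at 5.08, 6.47, 5.75, 6.40 and 4.64 CPM in untreated mice. The groups were well apart, with a log2 fold change of 1.27 (SE 0.17, adjusted p = 1.87e-05). Polr1a and Polr1b, the subunits that form the catalytic centre of the enzyme, rose by log2 0.75 and 0.79. Rrn3, the initiation factor that makes the polymerase competent to start, passed narrowly, at 0.35 (SE 0.13, adjusted p = 0.0415). Its IL-1β mice ran from 27.7 to 33.4 CPM, but untreated mouse UNT_9580, at 33.7 CPM, was higher than all of them. Rrn3 was called in 1 of the 6 tables only.

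The box C/D proteins, which carry the methylation guides, were grouped with the snoRNA chaperone Nolc1. All 4 members of this group were called higher, and the spread between them was wide. Nop58, a core protein of the particle (ENSMUSG00000026020, chr1:59741853-59768968, plus strand), had the largest fold change of all 38 members in each of the 6 tables. Its level was 102, 110.1, 146, 116 and 116 CPM with IL-1β and 17.3, 25.8, 26.5, 15.7 and 24.8 CPM in untreated mice. The lowest IL-1β mouse was thus far above the highest untreated mouse, the ratio of the means was 5.37, and the log2 fold change was 2.42 (SE 0.16, adjusted p = 1.61e-08). On Ion Torrent the same gene ran from 58.9 to 88.4 CPM against 10.7 to 15.4, a log2 fold change of 2.46 (SE 0.14, adjusted p = 1.1e-09). Nolc1, the chaperone that escorts snoRNA particles to the nucleolus (chr19:46150353-46160018, plus strand), stood at 82.6, 70.5, 97.3, 89.5 and 85.3 CPM against 29.5, 39.7, 42.6, 26.0 and 28.4. Its groups did not overlap, and it rose by log2 1.35 (SE 0.14, adjusted p = 2.14e-06). Nop56, the close relative and partner of Nop58, and Fbl, the methyltransferase fibrillarin, rose less, by log2 0.66 and 0.59.

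The box H/ACA proteins, which carry the pseudouridylation guides, were also called higher (3 of 3). Gar1 (chr3:129527830-129534314, minus strand) had 9.20, 9.56, 16.4, 13.2 and 10.1 CPM with IL-1β against 3.41, 4.08, 4.98, 4.62 and 1.76. The groups did not overlap, their means were 11.7 and 3.77 CPM, and the log2 fold change was 1.62 (SE 0.24, adjusted p = 6.13e-05). It was the member with the fewest reads (a mean of 81 per library), and the low value of mouse UNT_9584 rested on 19 reads. On Ion Torrent with STAR that mouse had 55 reads of Gar1, beside 56 to 67 in the other untreated mice. Nhp2, another core protein, rose by log2 0.87. Dkc1, the pseudouridine synthase dyskerin, passed narrowly at 0.36 (SE 0.14, adjusted p = 0.0492), with 22.0 to 26.7 CPM against 14.6 to 25.1, so that its groups overlapped. It was nevertheless called in all 6 tables.

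**Figure D2:**
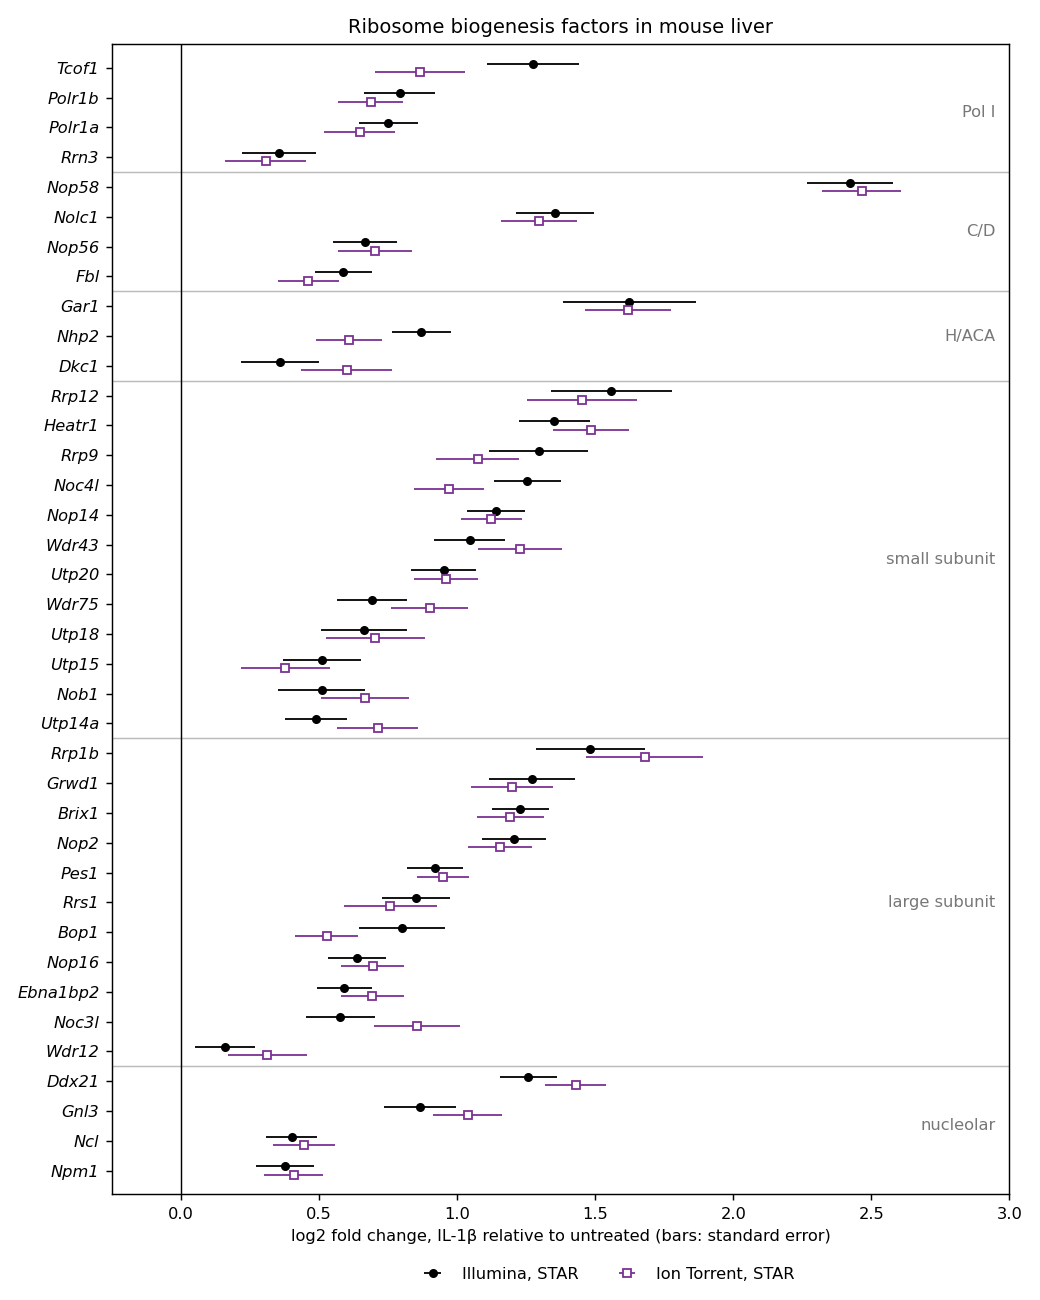
The log2 fold change of each of the 38 members (x axis) is plotted with its standard error for Illumina (filled circles) and Ion Torrent (open squares), STAR alignments, ordered within role groups. All points lie right of 0, from 0.16 (Wdr12, Illumina) to 2.46 (Nop58, Ion Torrent), and most pairs of error bars overlap.

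All 12 members of the small subunit processome and of small subunit maturation were called higher, with log2 fold changes from 0.49 to 1.56 and a median of 0.998. Rrp12, an export and maturation factor (chr19:41937342-41970643, minus strand), had 32.8, 30.0, 32.4, 29.4 and 37.1 CPM with IL-1β and 10.5, 14.6, 16.5, 7.11 and 6.04 CPM in untreated mice. The IL-1β mice were tightly grouped and the untreated ones were not, and the log2 fold change was 1.56 (SE 0.22, adjusted p = 3.77e-05). Heatr1, the mouse counterpart of yeast Utp10 (chr13:12487665-12530944, plus strand), had 55.3, 57.6, 81.9, 67.7 and 53.3 CPM against 23.1, 27.3, 27.5, 21.9 and 23.9. It rose by log2 1.35 (SE 0.13, adjusted p = 8.59e-07), with mouse ILB_9579 at the top. Rrp9, a protein specific to the U3 snoRNA particle that nucleates the processome (chr9:106378294-106387755, plus strand), had 18.7, 12.3, 15.7, 13.3 and 15.8 CPM against 5.08, 6.89, 6.78, 7.996 and 4.09. Noc4l, a partner of Nop14 (chr5:111077437-111082436, minus strand), had 28.0, 23.0, 29.2, 27.2 and 25.4 CPM against 12.2, 12.3, 11.7, 10.8 and 8.55. Both were separated between the groups, at log2 fold changes of 1.29 (SE 0.18) and 1.25 (SE 0.12). Nop14 itself reached 1.14. Next came Wdr43 at 1.05, Utp20 at 0.95, Wdr75 at 0.69 and Utp18 at 0.66. The lowest were Utp15 and Nob1, the nuclease of the last cut in the small subunit RNA, both at 0.51, and Utp14a at 0.49. The groups overlapped for Utp15 and Nob1.

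Of the 11 large subunit assembly factors, 10 were called higher, and the median was 0.85. Rrp1b (chr17:32173045-32199810, plus strand) had 18.1, 17.1, 22.8, 21.4 and 18.0 CPM with IL-1β against 8.07, 8.34, 9.27, 5.15 and 3.90. It rose by log2 1.48 (SE 0.20, adjusted p = 2.32e-05), and mice UNT_9580 and UNT_9584 were the low ones of the untreated group, as for Rrp12. Grwd1 (chr7:53080597-53086314, minus strand), a chaperone of a ribosomal protein, had 20.1, 16.4, 24.1, 18.3 and 22.7 CPM against 7.41, 9.96, 10.1, 8.35 and 6.22. Brix1, a factor of early large subunit particles (chr15:10404534-10415702, minus strand), had 50.9, 53.2, 59.4, 54.5 and 54.4 CPM against 23.0, 26.7, 21.9, 19.4 and 25.3. Brix1 varied little among the IL-1β mice, and the 2 genes rose by log2 1.27 (SE 0.15) and 1.23 (SE 0.10). Nop2, a methyltransferase of the large subunit RNA, followed at 1.21, Pes1 at 0.92, Rrs1 at 0.85 and Bop1 at 0.80. Nop16, Ebna1bp2 and Noc3l lay between 0.58 and 0.64.

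Wdr12 was the one member not called (chr1:60133712-60155489, minus strand, on the same chromosome as Nop58 and near it). It had 20.5, 22.7, 23.3, 21.0 and 19.8 CPM with IL-1β and 18.7, 22.4, 18.5, 16.1 and 20.3 CPM in untreated mice. The groups overlapped, and the log2 fold change was 0.16 (SE 0.11, adjusted p = 0.26). A ratio of mean counts not divided by library size put it at -0.02, and the 6 tables ranged from 0.16 to 0.37 with a call in 2 of them, both Ion Torrent.

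The abundant nucleolar proteins were called higher in 4 of 4 cases, with a median of 0.63. Nucleolin (Ncl, chr1:88241294-88256030, minus strand), which binds nascent ribosomal RNA, was the most counted member, at 244, 298, 242, 251 and 239.9 CPM against 192, 191, 192, 178 and 213. Its groups were apart by a small margin, and it rose by log2 0.40 (SE 0.09, adjusted p = 0.00239). Nucleophosmin (Npm1, chr11:33052287-33063206, minus strand), a histone and pre-ribosome chaperone, had 170.2, 204, 184, 166 and 158 CPM against 127, 134, 119, 136 and 164. Untreated mouse UNT_9584 reached into the IL-1β range, and the log2 fold change was 0.38 (SE 0.11, adjusted p = 0.00899). On Ion Torrent with STAR that mouse was not high, with 766 reads of Npm1 beside 778 to 973 in the other untreated mice. Npm1 has processed copies elsewhere in the mouse genome whose reads cannot be told apart here, so its count is uncertain. Ddx21, an RNA helicase that links the transcription of ribosomal DNA to processing (chr10:62042996-62065046, minus strand), behaved otherwise. It had 112, 119, 141, 131 and 116 CPM against 48.9, 58.5, 54.5, 43.0 and 54.1, well separated, for a log2 fold change of 1.26 (SE 0.10, adjusted p = 2.24e-07). Gnl3, the GTPase nucleostemin, rose by 0.87.

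**Figure D3:**
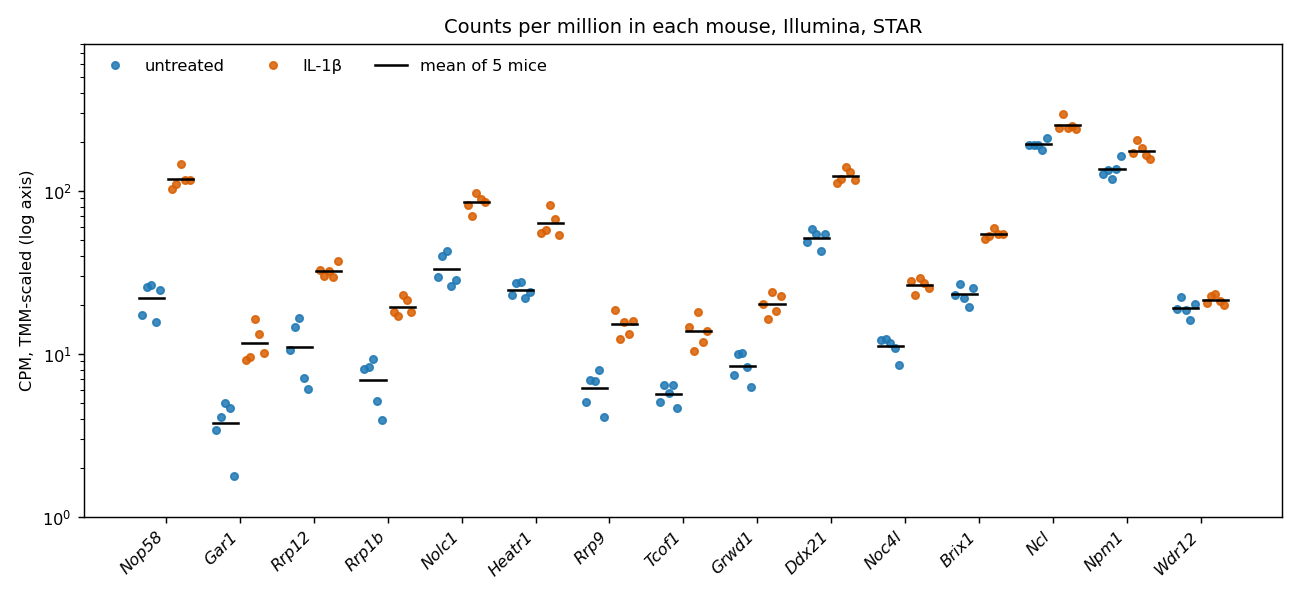
Points are the CPM of single mice (log axis, Illumina, STAR) for the 15 members described mouse by mouse, untreated in blue and IL-1β in orange, with bars at the means of 5 mice. The groups are clear of each other for all but Npm1 and Wdr12, and Gar1 in untreated mouse UNT_9584 is the lowest value at 1.76 CPM.

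Per kilobase of merged exons, Npm1 was the highest member in untreated mice (51.1 ± 6.47 CPM per kb, SD, n = 5), ahead of Ncl (23.4 ± 1.52) and Fbl (22.3 ± 2.13), which did not differ beyond their spread. These are levels from the STAR table. With GSNAP those of Npm1 and Fbl were lower by 2.98 and 4.39 times, as described below, so their places in the order depend on the aligner. Rrp1b was the lowest at 0.90 ± 0.30 CPM per kb. Nop58 changed place most visibly at the top of the order, from 11th with 8.51 ± 1.97 in untreated mice to 2nd with 45.7 ± 6.34 CPM per kb in IL-1β mice. Merged exons include alternative transcripts, which lowers such levels for genes with many of them, such as Nop56 with 19 transcripts. The length also depends on the annotation, which gave Ncl 8257 exon bases from 1 transcript.

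Proteins of one particle could be set side by side within each mouse, where the scaling between libraries cancels. These ratios, 9 pairs in 3 complexes, were chosen after the fold changes were known and carry no test. In the box C/D particle, the log2 ratio of Nop58 to Nop56 counts was -0.86 to -0.38 in untreated and 0.95 to 1.37 in IL-1β mice, and that of Nop58 to Fbl was -0.79 to 0.11 and 1.205 to 2.03. The ratio of Nop56 to Fbl covered 0.06 to 0.62 and 0.22 to 0.79. The level of the Fbl ratios depended on the aligner. With GSNAP on Illumina, Nop58 to Fbl was 1.42 to 2.62 in untreated and 3.19 to 4.35 in IL-1β mice, and Nop56 to Fbl 1.83 to 2.60 and 1.83 to 2.69. So the shift in this particle lay with Nop58, on Ion Torrent as well, where the ratio of Nop58 to Nop56 moved from -0.98 to -0.80 in untreated to 0.51 to 1.32 in IL-1β mice. In the box H/ACA particle, Gar1 to Nhp2 was -2.75 to -1.71 in untreated and -1.503 to -0.64 in IL-1β mice, and Gar1 to Dkc1 was -3.28 to -1.66 and -1.39 to -0.71. Both untreated minima came from mouse UNT_9584, where Gar1 had few reads. Pes1, Bop1 and Wdr12 form a trimer of the large subunit pathway. Pes1 to Wdr12 was 0.43 to 0.86 in untreated and 1.31 to 1.56 in IL-1β mice on Illumina, and on Ion Torrent 0.78 to 1.15 and 1.11 to 1.97, which overlap. The shift in the mean ratio of Bop1 to Wdr12 was 0.66 on Illumina and 0.23 on Ion Torrent. Pes1 to Bop1 shifted by 0.10 on Illumina, where the groups overlapped, and by 0.42 on Ion Torrent, where they did not (-0.36 to 0.01 in untreated and 0.20 to 0.43 in IL-1β mice). Nhp2 to Dkc1 shifted by 0.50 on Illumina and 0.0037 on Ion Torrent, with overlapping groups on both. These 3 ratios thus gave different sizes on the platforms, and the differences were not tested.

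**Figure D4:**
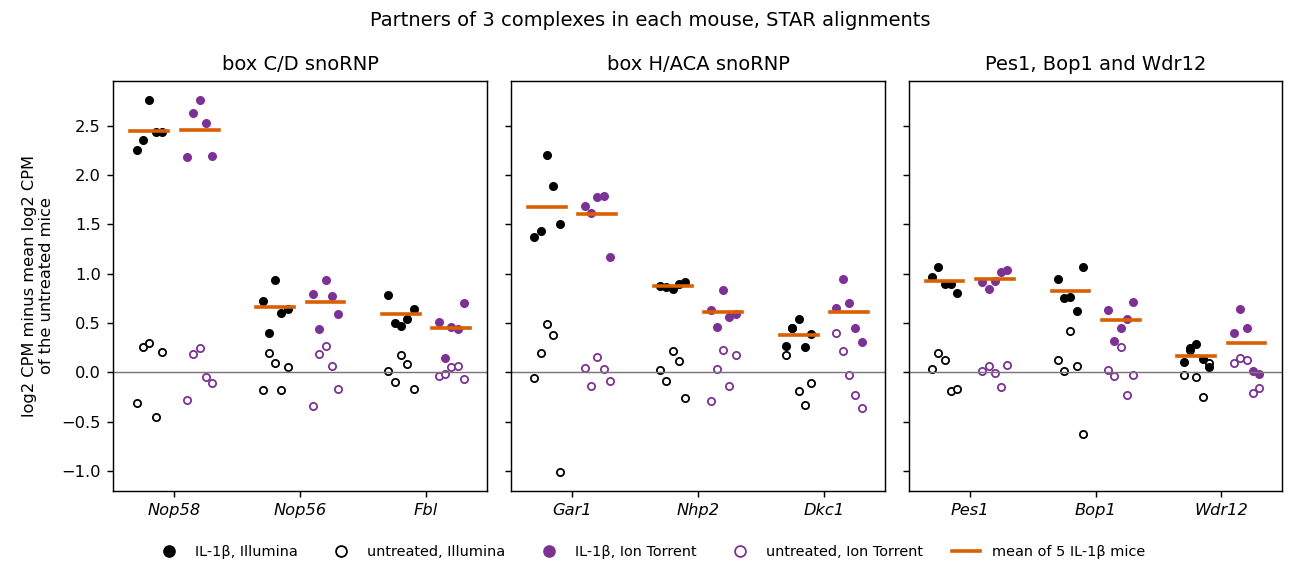
For the proteins of 3 complexes, points are the log2 CPM of single mice minus the mean log2 CPM of the untreated mice, for Illumina (black) and Ion Torrent (purple), open for untreated and filled for IL-1β, with orange bars at the means of the 5 IL-1β mice. Nop58 and Gar1 lie above their partners on both platforms, and Wdr12 has the lowest IL-1β means of the 9 genes.

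The remaining tables gave the same direction. All 38 members had a log2 fold change above 0 in each of the 6 tables, and 35 were called higher in every one. The share of all genes called higher in every table was not counted, and it cannot exceed 20.3%, the lowest of the shares below. The 6 tables come from the same 10 livers and are not independent. On Illumina 36 members were called with GSNAP (23.7% of all genes called higher) and 36 with STAR plus Bowtie2 (22.9%). On Ion Torrent 35 were called with STAR (20.3%), 36 with GSNAP (22.5%) and 36 with STAR plus Bowtie2 (22.8%). None was called lower in any table, against 23.9% (GSNAP) and 24.4% (STAR plus Bowtie2) of all genes on Illumina, and 21.8% (STAR), 23.9% (GSNAP) and 24% (STAR plus Bowtie2) on Ion Torrent. The groups were apart, every IL-1β mouse above every untreated mouse, for 34 and 32 members in those Illumina tables (18.2% and 17.8% of all genes), and for 31, 33 and 33 in the Ion Torrent ones (15.5%, 16.8% and 16.7%). In 31 members this held in all 6 tables, and for all genes that joint share, which was not counted, cannot exceed 15.5%. On Ion Torrent STAR, 14 members were called with a log2 fold change above 1 (7.41% of all genes), and the Mann-Whitney U test called 27 (11.8%). The exceptions were Wdr12 in 4 tables, Rrn3 in 5 and Utp15 in the 3 Ion Torrent tables. The median log2 fold change on Ion Torrent STAR was 0.86. The largest gap between any 2 tables was that of Tcof1, from 0.86 to 1.27, and the median gap was 0.17. Levels of Fbl and Npm1 were lower with GSNAP than with the other aligners. Fbl stood at a mean of 5.89 CPM with GSNAP and 25.9 with STAR in untreated Illumina libraries, a ratio of 4.39, and Npm1 at 45.7 and 136, a ratio of 2.98, while no other member moved by more than 1.26 times. The log2 fold changes of Fbl with GSNAP and STAR were 0.63 and 0.59.

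Whether the response differed between platforms was tested by a platform-by-treatment term with the mouse as a block, since both libraries of a pair came from the same liver. With STAR, 0 of the 38 members passed an adjusted p of 0.05, against 1 of all 15578 genes (0.00642%). With GSNAP and with STAR plus Bowtie2 the members again gave 0, against 0.0642% and 0.077% of all genes. Unadjusted, 2 members (Tcof1 and Bop1) were under 0.05 with STAR, against 7% of all genes, 3 with GSNAP (7.81%) and 4 with STAR plus Bowtie2 (7.77%). The largest difference there was that of Tcof1, -0.40 (Ion Torrent minus Illumina, SE 0.15, adjusted p = 0.69).

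Genes of the same pathway outside the members were read from lists of textbook factors. Like the members, these lists were chosen with earlier results of these data known, so they are no independent check. Of 11 other RNA polymerase I factors, 5 were called higher and 0 lower, with a median of 0.61, led by Polr1e at 1.15, while Ubtf, the factor that keeps ribosomal DNA open, was at 0.12 (adjusted p = 0.41). Of 39 other small subunit factors, 31 were called higher and 0 lower, with a median of 0.51, and Ngdn (1.83) and Tsr1 (1.62) led. Of 48 other large subunit factors, 38 were called higher and 0 lower, with a median of 0.66. Ppan and Eif6, which keeps immature large subunits from joining small ones, both reached 1.54. Of 11 snoRNA particle assembly factors 6 were called higher and 0 lower, and of 13 nuclear exosome factors, which trim the RNA, 9 and 0, with medians of 0.63 and 0.60. On Ion Torrent (STAR), the corresponding counts called higher were 7 RNA polymerase I, 29 small subunit, 37 large subunit, 7 snoRNA particle and 8 exosome factors, again with 0 lower. Elsewhere 2 genes were called lower in 1 table each, Nmd3, an export adaptor of the large subunit, with STAR plus Bowtie2 on Illumina (-0.31, adjusted p = 0.0308) and Znhit6, a box C/D assembly factor, with GSNAP on Ion Torrent (-0.41, adjusted p = 0.0297). Both were below 0 and not called in the other 5 tables. The percentages to set beside them are the 22.7% (Illumina) and 20.3% (Ion Torrent) of all genes called higher.

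The Myc and Max network was mixed, with 5 of 11 called higher and 4 lower, beside 22.7% and 22.9% of all genes. The counts were 3 higher and 4 lower in each of the other 5 tables. Max and Mxd1 were called higher in all 6 tables, and Mxd4 in the Illumina tables only (adjusted p = 0.00121 here). Mnt (adjusted p = 0.0461) and Mga (adjusted p = 0.0453) passed narrowly here. Mnt was called in no other table, while Mga was called with each aligner on Ion Torrent (adjusted p = 0.0182 with STAR). Mycl1, Mxi1 and Mlxipl were called lower in all 6 tables, Mycn only in the Illumina ones and Myc only in the Ion Torrent ones. Max, the shared partner, rose by log2 1.08 (SE 0.10), and Mxd1, a repressor that competes with Myc for Max, by 1.60 (SE 0.17). Mycl1 fell by 3.77 on the log2 scale, from 6.44 to 16.2 CPM in untreated mice to 0.201 to 1.23 in IL-1β mice. Myc itself had 6.35, 2.27, 4.67, 3.87 and 2.92 CPM with IL-1β against 5.33, 2.04, 10.98, 37.8 and 1.95, and its log2 fold change was -1.52 (adjusted p = 0.073). The difference hung on untreated mouse UNT_9580: without it the log2 fold change was -0.34 (adjusted p = 0.59). On Ion Torrent it was called lower, at -1.54 (adjusted p = 0.0477), and not without that mouse (-0.23, adjusted p = 0.64), and the call was also lost on leaving out several of the other mice. Proliferation genes gave 2 of 13 higher and 2 lower, with a median of -0.04, shares no larger than those of all genes. The other tables gave 1 or 2 higher and 1 to 3 lower. Several of these genes had few reads, which makes a call hard to reach. Over the 10 mice, Ccnb1 ran from 0.0851 to 1.11 CPM and Top2a from 0.906 to 2.07, while Pcna ran from 23.5 to 28.4 CPM.

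**Figure D5:**
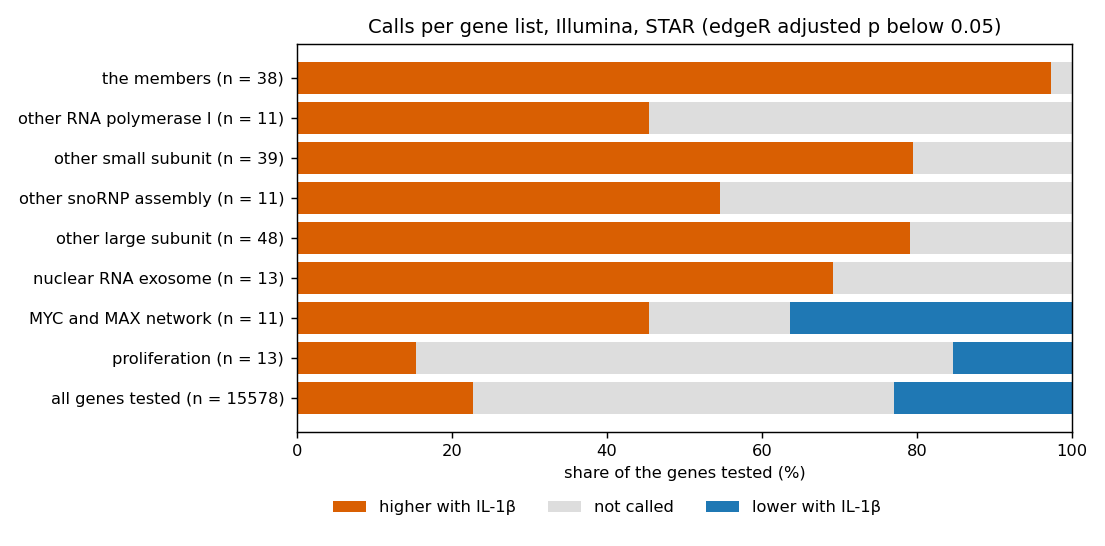
Bars give the share of tested genes (x axis, percent) called higher (orange), called lower (blue) or not called (grey) in the Illumina STAR table, for the 38 members, for other gene lists of the pathway and for all 15578 genes. The members and the other subunit assembly lists show no blue, while all genes show 22.7% higher and 22.9% lower.

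A minority of the members are host genes of snoRNAs. In the NCBIM37 annotation, 6 of the 38 (15.8%) hold snoRNA genes on their own strand, namely Nop56, Nop58, Dkc1, Wdr43, Ncl and Gnl3, against 251 of 15560 tested genes (1.61%). Their log2 fold changes ran from 0.36 to 2.42 with a median of 0.77, and those of the other 32 from 0.16 to 1.62 with a median of 0.86. The libraries were selected for poly-A, and the snoRNAs themselves were not examined. A coding gene lies on the opposite strand over part of 8 members (Nop56, Dkc1, Nhp2, Rrp9, Bop1, Pes1, Wdr12 and Gnl3). Both kits keep the strand, but whether the counting used it is not given in the sources used here, so reads of such pairs may be shared.

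Acute phase genes and marker genes of cell types were read beside the members. All 7 acute phase genes used to check the treatment were called higher, from 2.30 (Socs3) to 9.90 (Lcn2). Of 6 neutrophil markers tested, 6 were called higher, and their sum was 51.9 to 114 CPM in IL-1β mice and 2.13 to 6.24 in untreated mice (Ly6g was too low to test). Of 5 hepatocyte markers 3 were called lower and 0 higher, with sums of 62337 to 74554 against 86029 to 105031 CPM. Alb alone made up 49796 to 58963 and 67041 to 84438 CPM of these sums. Among 6 Kupffer cell and macrophage markers 1 was higher and 2 lower (60.0 to 139 against 105 to 182 CPM). Among 4 lymphocyte markers 0 and 1 were (0.805 to 1.78 against 1.07 to 2.996 CPM, with Cd3e and Ms4a1 too low to test), among 4 endothelial markers 1 and 1 (55.3 to 102 against 78.5 to 114 CPM), and among 4 stellate and cholangiocyte markers 0 and 2 (39.1 to 64.9 against 72.2 to 103 CPM). Their part in the rise of the members was not tested. In bulk liver, a change in the number of cells of a type and a change in RNA per cell cannot be told apart. Library totals after the authors' re-sampling ran from 10568530 to 12008799 on Illumina and from 12199528 to 16439683 on Ion Torrent. Untreated mouse UNT_9584 had the least similar pair of libraries, with a correlation of its deviations from the group mean across platforms of 0.20 to 0.25, against 0.56 to 0.73 in the other mice.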

How the data were processed

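Poly-A RNA from 10 mouse livers was sequenced on both platforms. The authors aligned reads to mm9 with GSNAP, STAR 2.5.1b, or STAR followed by Bowtie2 2.2.9, removed ribosomal and mitochondrial reads, brought libraries within a table to a common depth by re-sampling with PORT and deposited whole-number counts per Ensembl gene (whether an Illumina count is a read pair is not given in the sources used here). Re-sampling discards reads of deeper libraries and so limits the precision of weakly expressed genes. Columns were matched to samples by mouse number.

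The 15578 genes with 5 or more counts in 5 or more mice of any table were fitted together, table by table, with edgeR 4.0.16 (TMM factors, quasi-likelihood F test, Benjamini-Hochberg adjustment) in R 4.3.3. Log2 fold changes have standard errors derived from the F statistic. The study's Mann-Whitney U test, DESeq2 1.42.0, limma-voom (limma 3.58.1), other scalings, filters, aligners and leaving out each mouse were alternatives. Mouse numbers pair the libraries of the platforms, since both came from the same liver (correlation of deviations 0.20 to 0.73), and the mouse was a block in the platform-by-treatment fit. Scripts were tested on simulated data.

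The members, their roles and all gene lists were chosen with earlier results of these data known. Members described mouse by mouse were those called with the 12 largest positive and 6 largest negative fold changes (no negative one was called), the 3 with the highest mean count, any called for the platform term (none), and the uncalled Wdr12. Levels are CPM scaled by TMM factors. Promoters are RefSeq entries of GRCm38.p6. Genes named from the other lists were chosen after their values were seen. Settings for Myc, Mycl1, Max and Mxd1, the partner ratios and the CCGGAA search were added after seeing the data. Replicates are separate mice. P-values cover the spread between these mice.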

Additional observations from a re-analysis of the deposited data

Results flagged for a closer look

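In 168 groups of 5 mice (38 members and 4 genes of the Myc network, both treatments, both platforms, STAR), 5 had a mouse standing apart from the rest by Dixon's criterion, where chance gives about 1 in 20. With IL-1β on Illumina, Utp14a reached 26.6 CPM in mouse ILB_9579 against 21.3 to 22.6 in the others, and Noc3l reached 16.7 CPM in the same mouse against 12.2 to 13.5. Ncl reached 298 CPM in mouse ILB_9578 against 239.9 to 251 in the others. Among untreated mice, Myc was at 37.8 CPM in mouse UNT_9580 on Illumina against 1.95 to 10.98 in the others, and at 58.3 CPM on Ion Torrent against 3.37 to 14.04. Mouse UNT_9580 stood apart for Myc in both libraries made from the same liver.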

How the results depend on the processing

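With edgeR, 37 of 38 members were called higher in the Illumina STAR table and 35 in the Ion Torrent STAR table. Requiring an absolute log2 fold change above 1 left 15 and 14. Across the other settings the counts were 32 to 37 on Illumina and 27 to 36 on Ion Torrent, the lowest by the Mann-Whitney U test, and 34 on Illumina without TMM factors, where Rrn3, Dkc1 and Nob1 were lost. Leaving out each mouse gave 35 to 36 on Illumina, where the calls lost were those of Rrn3 and Dkc1, and 35 to 38 on Ion Torrent. No setting called a member lower (0 to 0 when leaving out each mouse). The direction turned once, for Wdr12 on Illumina, at -0.018 as a ratio of mean counts (Mann-Whitney q = 0.99). The cause was not tested. For the platform-by-treatment term, the fit with the mouse as a block called 0 members, the fit without the replicate block also called 0, and so did every other setting and each omission of a mouse (0 to 0). The block thus changed no adjusted call of a member. It did change the unadjusted results with STAR, where 1090 of all genes were under 0.05 with the block and 244 without it. Tcof1 and Bop1 had an unadjusted p of 0.0139 and 0.0413 with the block and of 0.112 and 0.204 without it. Leaving out each mouse moved Myc between -1.80 and -0.34 on Illumina and between -1.80 and -0.23 on Ion Torrent. Depth limits Gar1 most, with 19 reads in its lowest library, and 5 mice a group limit the rank test.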
